A study of Homo sapiens with 6 samples.

Results

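The Janus kinases and the STAT transcription factors were followed in SW-1990 cells, an established human pancreatic adenocarcinoma line that was grown from a spleen metastasis. Members were all probe sets whose single annotated gene symbol was JAK1, JAK2, JAK3, TYK2, STAT2, STAT3, STAT5A, STAT5B or STAT6. This gave 25 probe sets of 8 genes, out of 41091 probe sets with 1 gene symbol and 19775 genes in all. No probe set is named for STAT2 in the annotation used here, so STAT2 was not analysed here. Total RNA was hybridised to 6 Affymetrix U133 Plus 2.0 arrays. The sh-PRLR group, 3 arrays, held cells infected with lentivirus carrying a short hairpin RNA (shRNA) directed at the prolactin receptor gene PRLR. The sh-Ctrl group, also 3 arrays, held cells with a scrambled shRNA. The controls were infected in the same way, and both groups were kept in puromycin at 1 μg/ml for more than 7 days, and the labels give the 3 arrays of each group as biological replicates. The labels do not say how many shRNA sequences were used or whether the cells were pools or clones.

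Janus kinases sit on the inner tails of cytokine receptors, which have no enzyme activity of their own. When a ligand brings receptors together, the kinases phosphorylate each other, the receptor and the STAT proteins, and the STATs then move to the nucleus as dimers. The prolactin receptor works mainly through JAK2 and STAT5A and STAT5B, while JAK1 and TYK2 serve interferon and interleukin-6 family receptors and JAK3 serves the common gamma chain receptors of lymphocytes. An array measures RNA, so nothing here speaks of phosphorylation, the step at which the pathway is switched on.

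The RefSeq promoter table (GRCh38.p14) held 15 start sites for the 8 genes, and the 250 bases before each were searched for 5 short motifs on both strands. The motifs were TTCNNNGAA, the palindrome that most STAT dimers bind, TTCNNNNGAA, the form with a longer spacer preferred by STAT6, GAAANNGAAA, the core of the interferon response element, CCAAT, and GGGCGG, the core of the SP1 box. The 4 windows printed are those of the JAK1 start richest in GGGCGG, of STAT5B and STAT5A, the usual effectors of prolactin, and of TYK2. They are read 5′ to 3′, motif matches are in capitals, and overlapping matches run together. A match is a description of these letters and not a measured binding site.
JAK1, chr1:64966550-64966799, minus strand: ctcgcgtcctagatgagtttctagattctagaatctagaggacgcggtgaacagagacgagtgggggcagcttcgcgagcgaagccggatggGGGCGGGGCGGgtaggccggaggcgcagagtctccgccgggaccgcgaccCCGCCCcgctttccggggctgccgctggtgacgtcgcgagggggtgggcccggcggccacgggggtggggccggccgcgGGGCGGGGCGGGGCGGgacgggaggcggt
STAT5B, chr17:42276392-42276641, minus strand: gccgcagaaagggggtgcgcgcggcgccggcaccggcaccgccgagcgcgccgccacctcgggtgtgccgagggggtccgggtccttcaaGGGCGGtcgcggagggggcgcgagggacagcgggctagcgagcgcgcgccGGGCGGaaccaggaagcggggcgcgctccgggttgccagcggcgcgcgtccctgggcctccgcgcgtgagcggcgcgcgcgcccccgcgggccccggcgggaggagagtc
STAT5A, chr17:42287189-42287438, plus strand: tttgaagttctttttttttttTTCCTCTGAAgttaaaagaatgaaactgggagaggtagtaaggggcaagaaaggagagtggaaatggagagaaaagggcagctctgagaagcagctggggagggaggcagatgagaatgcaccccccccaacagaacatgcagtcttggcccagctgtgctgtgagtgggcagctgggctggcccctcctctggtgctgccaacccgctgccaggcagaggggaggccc
TYK2, chr19:10380573-10380822, minus strand: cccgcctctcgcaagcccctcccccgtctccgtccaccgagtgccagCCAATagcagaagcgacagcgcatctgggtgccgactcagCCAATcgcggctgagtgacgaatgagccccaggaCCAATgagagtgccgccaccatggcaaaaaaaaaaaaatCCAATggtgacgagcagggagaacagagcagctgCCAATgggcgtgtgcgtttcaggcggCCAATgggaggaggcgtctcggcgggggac

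The JAK1 window held 6 matches to GGGCGG and the STAT5B window 2. The TYK2 window held 6 matches to CCAAT and 0 to the other motifs. Of the 15 windows, 7 held GGGCGG, each of another gene, against 42.6% of all 35116 windows in the table. CCAAT was found in 3 windows, those of STAT3, STAT6 and TYK2, against 32.0% of all windows. The palindrome TTCNNNGAA was in 0 of the 15 windows, against 6.57% of all, and GAAANNGAAA also in 0, against 3.02%. The longer form was in 1 window, that of the STAT5A start shown, against 5.38% of all. STAT5B, STAT5A and STAT3 follow one another as coding genes on chromosome 17, and STAT5B overlaps STAT5A in that gene table.

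All values below are log2 expression values per probe set, differences are sh-PRLR minus sh-Ctrl on that scale, and ± gives the SD over 3 arrays. Levels of different probe sets are not set against each other, because probes differ in brightness. The number of arrays limits the precision. The targeted gene was dim. Its brightest probe set, 227629_at, read 5.63, 5.71 and 5.05 in sh-PRLR, against 5.75, 5.36 and 5.97 in sh-Ctrl, and the groups overlapped (difference -0.23, limma adjusted p = 0.811 over all genes). The probe set with the smallest p, 231981_at, picked after the values were seen, read 4.70, 4.83 and 5.0 in sh-PRLR, against 6.38, 6.27 and 5.77 in sh-Ctrl. Of the 7 PRLR probe sets 3 were lower without overlap and 4 overlapped. PRLR averaged 4.17 ± 0.22 over its 7 probe sets in sh-PRLR and 5.02 ± 0.22 in sh-Ctrl, and all 7 probe sets had a lower mean in sh-PRLR (exact two-sided permutation test, p = 0.1, below which 3 arrays against 3 cannot go). None of the 7 passed limma, the smallest adjusted p being 0.0948 for 231981_at. RNA was taken from whole cultures, so fewer cells expressing a gene and less of its RNA per cell cannot be told apart. Of 10 markers of pancreatic duct-type epithelium 9 lay above the median gene level of 7.23. Their summed linear level was 122276 to 128328 in sh-PRLR and 127894 to 137725 in sh-Ctrl. Of these markers 2 fell, 20% of the list, where 4.32% of all genes fell. The 2 were TSPAN8, by 0.49, and CDH1, by 0.17, both named after their values were seen. With default settings 0 of the 10 duct-type markers passed. Markers of acinar, endocrine, fibroblast, endothelial and blood cells lay above that level in 3 of 27 cases, and the summed level of each of these 5 lists was 97 to 631 in sh-PRLR and 60 to 562 in sh-Ctrl. None of the 27 passed limma, 4 had an unadjusted p under 0.05, and 0 passed with default settings.

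None of the 8 JAK and STAT genes changed after the knockdown by limma with a variance that depends on intensity, at an adjusted p of 0.05 over all genes, while 7.66% of all genes did. The smallest adjusted p among them was 0.133, for STAT5B, and 1 of the 8 had an unadjusted p under 0.05, against 20.3% of all genes. With limma's default settings 0 of the 8 passed as well, against 0.0202% of all genes. Each gene is read by its brightest probe set, that is the one whose mean over the 6 arrays is highest. On these probe sets 4 genes had a higher and 4 a lower mean in sh-PRLR, from -0.23 for JAK2 to 0.29 for STAT5A. The median of the 8 differences was 0.04, beside -0.0013 over all genes. The 4 kinases had a median of -0.16 and the 4 STATs one of 0.19, each from genes that did not pass. The signs of JAK2, JAK3 and STAT6 turned under some alternative settings. The 95% interval of the difference lay within 1 log2 unit on either side of 0 for all 8 genes. It lay within 0.5 for 5 of them, JAK1, TYK2, STAT3, STAT5B and STAT6, and within 0.25 for 2, JAK1 and STAT6.

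**Figure D1:**
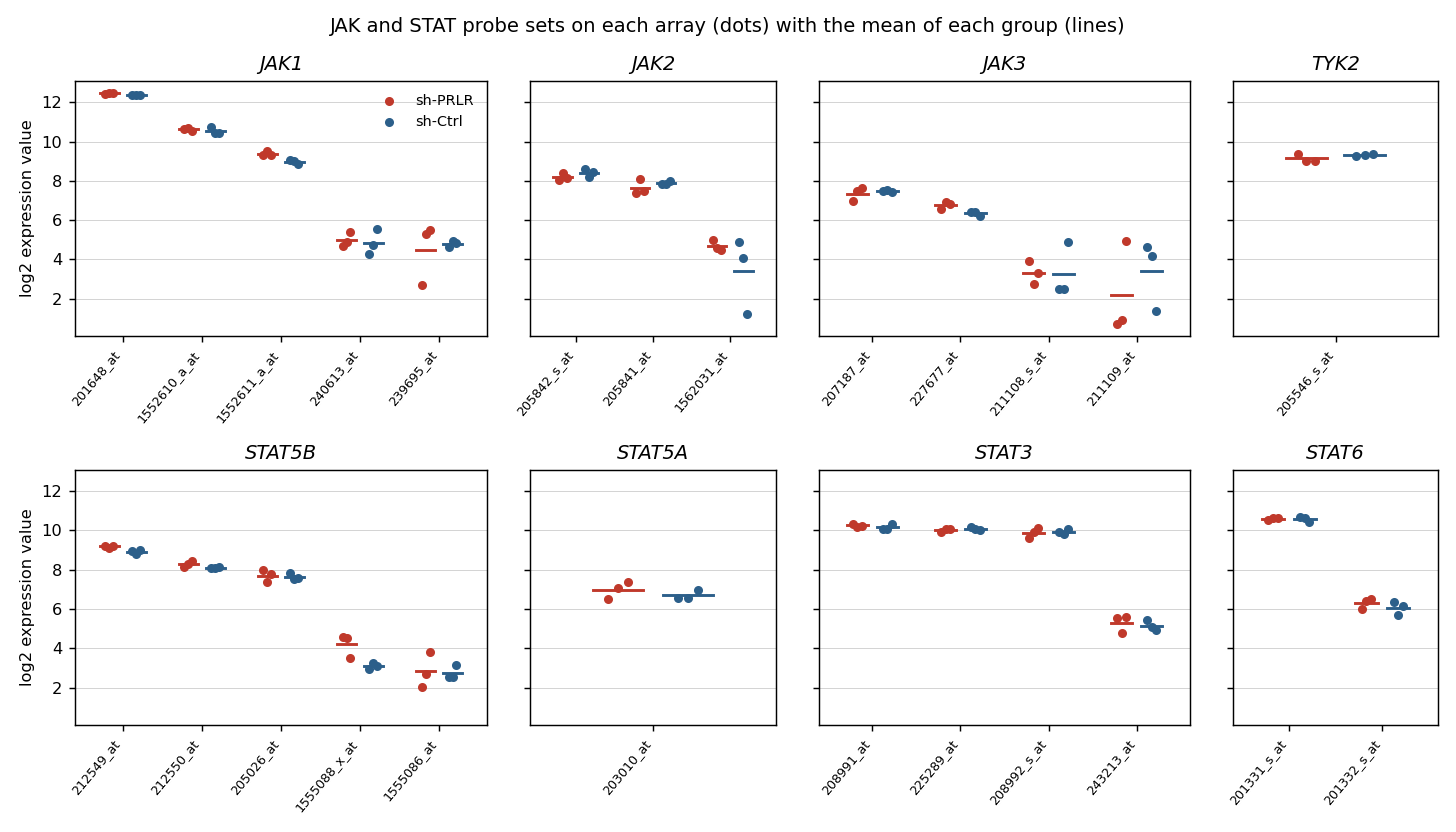
Log2 expression value (vertical axis) of the 25 JAK and STAT probe sets in sh-PRLR (red) and sh-Ctrl (blue), with 1 dot per array and a line at the mean of each group of 3. Within a gene the probe sets run from bright to dim, and the dots of a group spread widely below a value of about 5.

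Among the kinases, JAK1, which pairs with JAK2, JAK3 or TYK2 on most cytokine receptors, had the most precise reading. Its brightest probe set 201648_at read 12.43, 12.50 and 12.46 in sh-PRLR, against 12.37, 12.35 and 12.40 in sh-Ctrl. All 3 sh-PRLR arrays lay above the sh-Ctrl arrays, but by little, a difference of 0.09 (95% interval -0.01 to 0.19, limma adjusted p = 0.321 over all genes). As a ratio this is 1.06, and its interval reaches from 0.991 to 1.14.

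One JAK1 probe set, 1552611_a_at, did rise. It read 9.34, 9.52 and 9.32 in sh-PRLR, against 9.04, 9.0 and 8.86 in sh-Ctrl, a difference of 0.43 (95% interval 0.20 to 0.65, limma adjusted p = 0.0375 over the 41091 named probe sets). The ending _a_at marks a probe set for several transcripts of 1 gene. Its neighbour 1552610_a_at read 10.66, 10.71 and 10.56 in sh-PRLR, against 10.76, 10.43 and 10.43 in sh-Ctrl, and the groups overlapped (difference 0.10, limma adjusted p = 0.665 over all probe sets). The 2 dim JAK1 probe sets, 240613_at and 239695_at, gave differences of 0.14 and -0.31 with intervals beyond 1 log2 unit on both sides. The call of 1552611_a_at was kept in 2 of 13 alternative settings, quantile normalisation and the filter on dim features, and its adjusted p ran from 0.0189 to 0.245 over all 13, with the difference between 0.36 and 0.46. It was lost without any single one of the 6 arrays. It is 1 of the 25 probe sets of these genes, where 4.67% of all named probe sets passed, 2.17% as higher and 2.5% as lower.

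JAK2, the kinase bound to the prolactin receptor itself, gave a negative difference that did not pass on either of its brighter probe sets. Probe set 205842_s_at read 8.06, 8.41 and 8.14 in sh-PRLR, against 8.60, 8.21 and 8.47 in sh-Ctrl (difference -0.23, 95% interval -0.55 to 0.10, limma adjusted p = 0.456 over all genes). Probe set 205841_at read 7.37, 8.10 and 7.48 in sh-PRLR, against 7.85, 7.84 and 8.0 in sh-Ctrl (difference -0.25, limma adjusted p = 0.596 over all probe sets). In both, sh-PRLR replicate 2 lay among or above the sh-Ctrl arrays and replicates 1 and 3 below them. The third probe set, 1562031_at, was dim and read 5.0, 4.58 and 4.46 in sh-PRLR, against 4.90, 4.05 and 1.25 in sh-Ctrl. Its difference of 1.28 rests on the single low sh-Ctrl array, replicate 3, without which it was 0.20, and averaging all 3 probe sets turns the JAK2 difference to 0.27.

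TYK2, the partner of JAK1 on type I interferon receptors, is read by a single probe set, 205546_s_at. It gave 9.37, 9.03 and 9.04 in sh-PRLR, against 9.27, 9.32 and 9.37 in sh-Ctrl. The first sh-PRLR array matched the highest control array and the other two lay below all controls (difference -0.17, 95% interval -0.42 to 0.07, limma adjusted p = 0.437 over all genes). As a ratio the interval runs from 0.749 to 1.05.

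JAK3, which in the body is largely a kinase of lymphocytes, was read near the median gene level at most. Probe set 207187_at gave 6.96, 7.46 and 7.62 in sh-PRLR, against 7.50, 7.52 and 7.45 in sh-Ctrl, with overlap (difference -0.14, limma adjusted p = 0.763 over all genes). Probe set 227677_at gave 6.58, 6.94 and 6.82 in sh-PRLR, against 6.4, 6.43 and 6.23 in sh-Ctrl. Here all sh-PRLR arrays lay above the controls, but the difference of 0.43 did not pass (95% interval -0.08 to 0.93, limma adjusted p = 0.392 over all probe sets). The remaining 2, 211108_s_at and 211109_at, scattered from 0.70 to 4.96 in sh-PRLR and from 1.37 to 4.87 in sh-Ctrl. Of 6 blood and spleen cell markers 1, CD79A of B cells, lay above the median gene level, with a mean of 7.79 in sh-PRLR and 7.34 in sh-Ctrl. The leukocyte marker PTPRC had a mean of 4.3 in sh-PRLR and 3.42 in sh-Ctrl. The T cell marker CD3E averaged 6.4 in sh-PRLR and 5.55 in sh-Ctrl, and the monocyte marker CD14 averaged 4.5 in sh-PRLR and 6.17 in sh-Ctrl. None of the 6 passed limma, 2 had an unadjusted p under 0.05, CD79A as higher and CD14 as lower, and their summed linear level was 463 to 631 in sh-PRLR and 398 to 562 in sh-Ctrl. Their part in the JAK3 readings was not tested.

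Among the STATs, STAT5B had the smallest p of all 8 genes. Together with STAT5A it is the factor most directly tied to prolactin. Its brightest probe set 212549_at read 9.23, 9.11 and 9.23 in sh-PRLR, against 8.95, 8.81 and 9.0 in sh-Ctrl. The groups did not overlap, yet the difference of 0.27 did not pass (95% interval 0.06 to 0.49, unadjusted p = 0.0182, limma adjusted p = 0.133 over all genes). As a ratio it is 1.21.

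The second STAT5B probe set, 212550_at, read 8.16, 8.32 and 8.46 in sh-PRLR, against 8.07, 8.09 and 8.14 in sh-Ctrl, again without overlap (difference 0.21, limma adjusted p = 0.454 over all probe sets). The third, 205026_at, overlapped, with 7.99, 7.36 and 7.76 in sh-PRLR and 7.84, 7.53 and 7.59 in sh-Ctrl (difference 0.05). The dim 1555088_x_at, whose ending marks probes that can cross-hybridise, read 4.60, 4.52 and 3.49 in sh-PRLR, against 2.94, 3.23 and 3.11 in sh-Ctrl (difference 1.11, 95% interval -0.54 to 2.76, limma adjusted p = 0.519 over all probe sets). All 5 STAT5B probe sets had a positive difference, the lowest being 0.05. Of the 6 genes with several probe sets STAT5B was the only one without probe sets of both signs. Probe sets of 1 gene share its RNA and are not replicates of the knockdown.

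STAT5A is read by 1 probe set, 203010_at, below the median gene level. It gave 6.50, 7.07 and 7.37 in sh-PRLR, against 6.54, 6.55 and 6.98 in sh-Ctrl. The sh-PRLR arrays spread more than the controls and straddled them (0.44 against 0.25 SD), and the difference of 0.29 had a 95% interval of -0.30 to 0.89 (limma adjusted p = 0.620 over all genes). Its change was thus much less well measured than that of STAT5B, although the 2 differences were of like size.

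STAT3, the factor of interleukin-6 family cytokines, was bright on 3 of its 4 probe sets and gave differences of both signs. Probe set 208991_at read 10.34, 10.20 and 10.23 in sh-PRLR, against 10.06, 10.06 and 10.34 in sh-Ctrl (difference 0.10, 95% interval -0.10 to 0.30, limma adjusted p = 0.608 over all genes). Probe set 225289_at read 9.90, 10.06 and 10.09 in sh-PRLR, against 10.16, 10.05 and 10.004 in sh-Ctrl (difference -0.05). Probe set 208992_s_at read 9.59, 9.92 and 10.13 in sh-PRLR, against 9.91, 9.84 and 10.05 in sh-Ctrl (difference -0.05). All 3 overlapped between the groups. The dim 243213_at gave 0.16.

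STAT6, the factor of interleukin-4 and interleukin-13, had the difference nearest to 0. Probe set 201331_s_at read 10.53, 10.64 and 10.63 in sh-PRLR, against 10.71, 10.66 and 10.44 in sh-Ctrl (difference -0.0014, limma adjusted p = 0.995 over all genes, 95% interval -0.18 to 0.18). As a ratio that interval is 0.884 to 1.13, so larger changes of this probe set lie outside it. The dimmer 201332_s_at read 5.98, 6.43 and 6.51 in sh-PRLR, against 6.36, 5.71 and 6.14 in sh-Ctrl (difference 0.24, limma adjusted p = 0.765 over all probe sets).

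**Figure D2:**
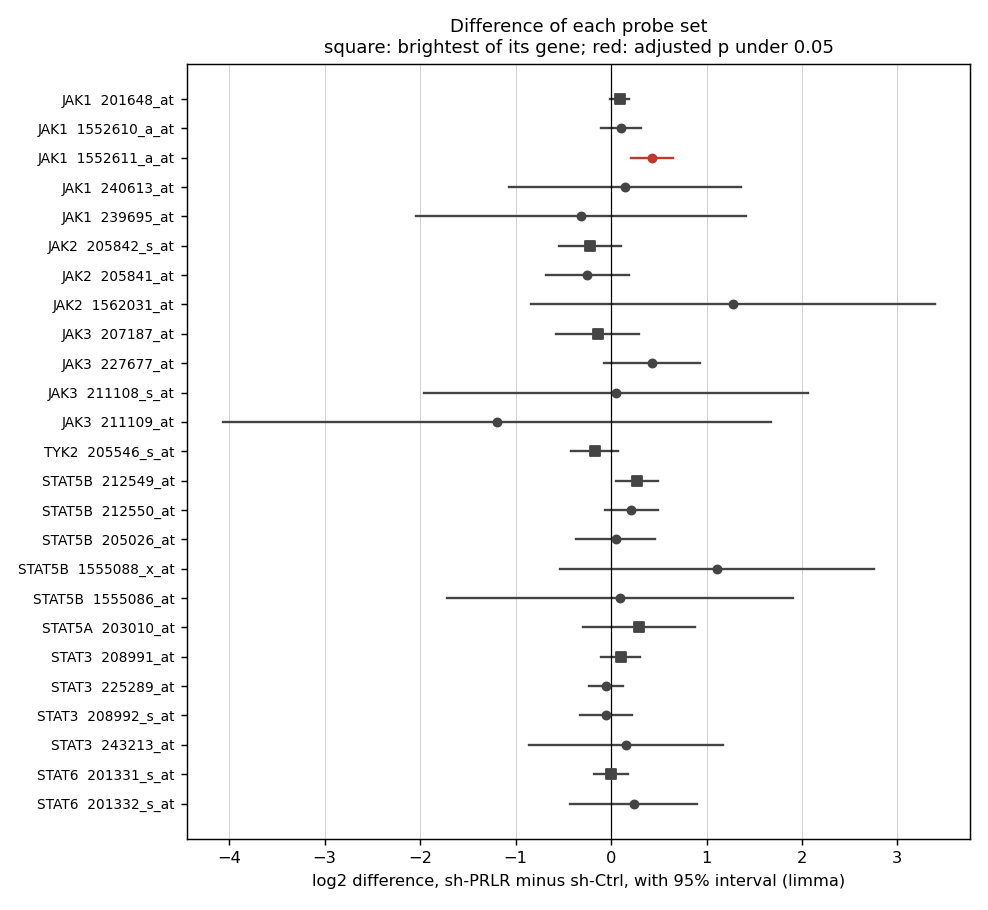
Log2 difference, sh-PRLR minus sh-Ctrl (horizontal axis), of each JAK and STAT probe set with its 95% interval from limma over 3 arrays a group. Squares mark the brightest probe set of a gene, and the interval of JAK1 1552611_a_at, in red, is 0.20 to 0.65.

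Over all 25 probe sets, 16 had a positive and 9 a negative difference, and 1 passed. Of the 25, 2 had an unadjusted p under 0.05, against 17% of all probe sets, and with default settings 0 passed, as 0 of all probe sets did. In 6 of 25, 24%, all arrays of one group lay beyond all arrays of the other, against 22.6% of all probe sets. All 6 were higher in sh-PRLR, where 11.0% of all probe sets were higher without overlap. They were JAK1 201648_at and 1552611_a_at, JAK3 227677_at, and STAT5B 212549_at, 212550_at and 1555088_x_at.

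Precision followed the level, a relation partly built into the fit, whose variance depends on intensity. For the 14 probe sets above the median gene level the 95% interval reached between 0.10 and 0.43 log2 units on either side of the difference, with a median of 0.23. For the 11 below it the reach was 0.51 to 2.87, with a median of 1.65. The largest difference in size was 0.43 among the brighter probe sets and 1.28 among the dim ones. The large differences in the dim set thus come with intervals that include 0.

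**Figure D3:**
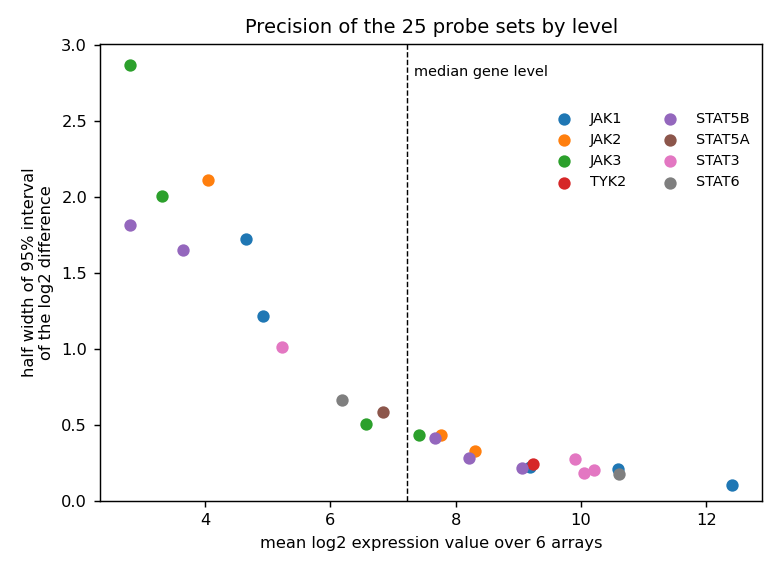
Reach of the 95% interval on either side of the log2 difference (vertical axis) against the mean log2 value over 6 arrays (horizontal axis) for the 25 probe sets, coloured by gene. The dashed line is the median gene level of 7.23, left of which the reach grows to 2.87.

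The genes around the JAKs and STATs were described with 9 lists of receptors, ligands, adaptors, inhibitors, partners and target genes, each gene read by its brightest probe set. In all 214 listed genes were measured, and 21 of them, 9.81%, passed limma with intensity-dependent variance, beside 7.66% of all genes. Of these 12 rose and 9 fell, where 3.34% of all genes rose and 4.32% fell, and the median difference of the 214 was 0.008. With default settings 0 of 214 passed. With each array centred on its median 9 passed, 2 higher and 7 lower. The change in the split applied to all genes too, where 43.6% of called genes were higher in the uncentred values and 28.3% after centring.

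Upstream, 38 cytokine receptor subunits were measured, with a median difference of 0.09. Of these 1 passed, 2.63% of the list, beside 7.66% of all genes. IFNLR1, the specific subunit of the interferon lambda receptor, rose. It read 9.56, 9.44 and 9.50 in sh-PRLR, against 8.83, 9.02 and 9.13 in sh-Ctrl (difference 0.50, SE 0.10, limma adjusted p = 0.0140). The call was kept in 9 of 15 alternatives and lost without sh-Ctrl replicate 1 or 2. Of the 38 receptors 14 lay above the median gene level. Among 32 ligands 0 passed and 2 had an unadjusted p under 0.05, with a median of 0.0006, and 4 lay above the median level. The smallest p values were those of LIF, an interleukin-6 family cytokine (difference 0.23, limma adjusted p = 0.0786), and IL11, another (difference 1.28, limma adjusted p = 0.209). LIF read 10.63, 10.82 and 10.73 in sh-PRLR, against 10.45, 10.48 and 10.55 in sh-Ctrl.

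Of 22 adaptors and kinases that act beside the JAKs 3 rose and 0 fell, 13.6% of the list, beside 7.66% of all genes. All 22 lay above the median gene level. With dim features left out 6 of the 22 passed, beside 2026 of the 11865 genes kept. SHC1, which links receptors to RAS, read 12.14, 12.30 and 12.20 in sh-PRLR, against 11.67, 11.73 and 11.60 in sh-Ctrl (difference 0.55, SE 0.06, limma adjusted p = 0.000611). STAM, an adaptor that binds JAKs and takes part in receptor sorting, read 12.01, 11.88 and 11.99 in sh-PRLR, against 11.68, 11.54 and 11.55 in sh-Ctrl (difference 0.37, limma adjusted p = 0.00515). IRS1, the insulin receptor substrate that JAKs also phosphorylate, gave 0.25 (limma adjusted p = 0.0231), and 1 of its 3 probe sets had the opposite sign, -0.08. SHC1 kept its call in 13 of 14 alternatives, STAM in 12 of 14 and IRS1 in 6 of 15. The median of the list was 0.05.

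Of 21 inhibitors 2 rose and 0 fell, 9.52% of the list, beside 7.66% of all genes, with a median of 0.04. PDLIM2, which promotes the ubiquitination of STATs, averaged 8.68 ± 0.17 in sh-PRLR and 8.07 ± 0.13 in sh-Ctrl (difference 0.61, limma adjusted p = 0.0205). SOCS7, a member of the suppressor of cytokine signalling family, averaged 11.89 ± 0.05 in sh-PRLR and 11.68 ± 0.05 in sh-Ctrl (difference 0.21, limma adjusted p = 0.0431). PDLIM2 kept its call in 6 of 15 alternatives and SOCS7 in 4 of 15, and one probe set of each had the opposite sign. The rest of the list, among them the phosphatases and the PIAS proteins, did not pass. Of 21 STAT partners and nuclear transport genes 0 passed and 4 had an unadjusted p under 0.05, with a median of 0.02. The smallest p values there belonged to CDK8, a kinase of the Mediator complex (0.23, limma adjusted p = 0.0695), and KPNA1, an importin that carries STATs (-0.19, limma adjusted p = 0.149).

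**Figure D4:**
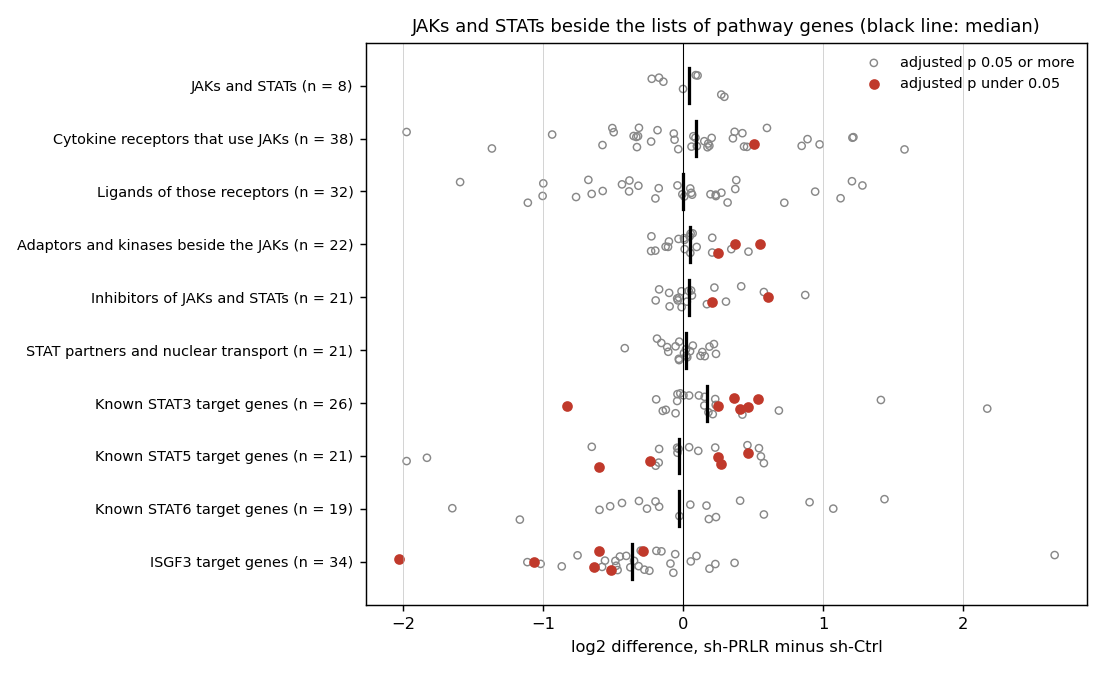
Log2 difference, sh-PRLR minus sh-Ctrl (horizontal axis), of each gene in the JAK and STAT group and in 9 lists of pathway genes, with 1 point per gene and a black line at the list's median. Filled red points have a limma adjusted p under 0.05, and the ISGF3 target genes have the lowest median, -0.36.

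Downstream, 26 known STAT3 target genes were measured, of which 5 rose and 1 fell, with a median of 0.17. That was 23.1% of the list, where 7.66% of all genes passed, 3.34% as higher and 4.32% as lower. The list was written with earlier results of these data known. Of the 26, 19 lay above the median gene level. With dim features left out 8 list genes passed, beside 2026 of the 11865 genes kept. VEGFA, the vascular growth factor, averaged 13.44 ± 0.05 in sh-PRLR and 13.03 ± 0.03 in sh-Ctrl (difference 0.41, limma adjusted p = 0.000544), and all 4 of its probe sets passed in the same direction. TNFAIP8, an inhibitor of cell death, gave 0.36 (limma adjusted p = 0.00541), PIM3, a survival kinase, 0.53 (limma adjusted p = 0.00873), and PIM1, a related kinase, 0.46 (limma adjusted p = 0.0130). CCND1, cyclin D1, gave 0.25 (limma adjusted p = 0.0354) and kept its call in 4 of 15 alternatives. VEGFA kept it in 12 of 14, TNFAIP8 in 11 of 15, PIM3 in 12 of 15 and PIM1 in 9 of 15. IFITM2, an interferon-induced membrane protein, fell, with 12.17 ± 0.17 in sh-PRLR and 13.00 ± 0.05 in sh-Ctrl (difference -0.83, limma adjusted p = 0.000229). Its probe set ends in _x_at and the IFITM genes are close copies, so which of them it reads is uncertain. SOCS3, the classic feedback target of STAT3, averaged 6.60 in sh-PRLR and 6.65 in sh-Ctrl (difference -0.04, limma adjusted p = 0.954), a gene named after its value was seen.

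Of 21 known STAT5 target genes 3 rose and 2 fell, 23.8% of the list. Of all genes 7.66% passed, 3.34% as higher and 4.32% as lower. The STAT5 list was also written with earlier results of these data known. Its median was -0.03, and 12 of its genes lay above the median gene level. With dim features left out 6 list genes passed, beside 2026 of the 11865 genes kept. The number called was 1 after median centring, 2 with a floor on low values, and 1 to 4 with 1 array left out. The rises were ID1, an inhibitor of differentiation factors (0.27, limma adjusted p = 0.00941), and PIM1 and CCND1, which the STAT3 list also holds. The falls were 2 other D-type cyclins. CCND2 averaged 12.98 ± 0.05 in sh-PRLR and 13.22 ± 0.05 in sh-Ctrl (difference -0.24, limma adjusted p = 0.0126). Of its 4 probe sets 3 were lower, 2 of them past the test, while the dimmest, 231259_s_at, was higher without overlap and did not pass (0.42, limma adjusted p = 0.269 over all probe sets). CCND3 averaged 9.32 ± 0.23 in sh-PRLR and 9.92 ± 0.27 in sh-Ctrl (difference -0.60, limma adjusted p = 0.0323), and its other probe set had the opposite sign. ID1 kept its call in 10 of 14 alternatives, CCND2 in 7 of 14 and CCND3 in 6 of 15. CISH, the STAT5 target used most often as its readout, averaged 7.21 in sh-PRLR and 7.38 in sh-Ctrl (difference -0.17, limma adjusted p = 0.760), and SOCS2, another, 10.43 in sh-PRLR and 10.63 in sh-Ctrl (difference -0.20, limma adjusted p = 0.166). Both were named after their values were seen. Of 19 known STAT6 target genes 0 passed, 1 had an unadjusted p under 0.05, and 3 lay above the median gene level. Their median was -0.03. The smallest p values belonged to IL4R, the interleukin-4 receptor (-0.32, limma adjusted p = 0.133), and CCL17, a chemokine (1.44 at a level of 3.39, limma adjusted p = 0.427).

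The 34 target genes of ISGF3, the interferon-activated complex of STATs and IRF9, were the list with the lowest median, -0.36, beside -0.0013 over all genes. Of these 6 fell and 0 rose, 17.6% of the list, where 4.32% of all genes fell. Of the 34, 17 lay above the median gene level, and 28 did not pass. In 28 of 34 the mean was lower in sh-PRLR and in 6 it was higher. Without overlap of the groups 15 of the 34 were lower, where 14.1% of all genes were. The median difference of the list stayed negative under quantile normalisation, -0.34, and after median centring, -0.40. That interferon-stimulated genes are lower in sh-PRLR was known from earlier results on these arrays when the list was written.

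IFI6, a mitochondrial and endoplasmic reticulum protein induced by interferon, read 8.27, 8.14 and 8.11 in sh-PRLR, against 9.32, 9.23 and 9.18 in sh-Ctrl (difference -1.07, SE 0.11, limma adjusted p = 0.000284). IFITM1, an antiviral membrane protein, averaged 10.34 ± 0.09 in sh-PRLR and 10.85 ± 0.03 in sh-Ctrl (difference -0.51, limma adjusted p = 0.00164). Its only probe set, 214022_s_at, was not checked for probes shared with the other IFITM genes. TRIM22, an antiviral ubiquitin ligase, read 5.10, 4.99 and 5.37 in sh-PRLR, against 7.21, 6.95 and 7.39 in sh-Ctrl (difference -2.03, SE 0.29, limma adjusted p = 0.00237). Its sh-PRLR level lay among the dimmest 40% of genes, where the size of a fall is uncertain.

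HERC6, a ubiquitin ligase family member, averaged 8.97 ± 0.08 in sh-PRLR and 9.57 ± 0.08 in sh-Ctrl (difference -0.60, limma adjusted p = 0.00340), while its dim second probe set gave 1.92 without passing. SAMD9, an antiviral protein, averaged 8.24 ± 0.09 in sh-PRLR and 8.88 ± 0.11 in sh-Ctrl (difference -0.64, limma adjusted p = 0.00816). The sixth, ISG15, a ubiquitin-like modifier named after its value was seen, gave -0.29 (limma adjusted p = 0.0439) and kept its call in 4 of 14 alternatives. IFI6 kept its call in 14 of 15 alternatives, IFITM1 and TRIM22 in 13 of 14, and HERC6 and SAMD9 in 13 of 15, the default variance model being among those that lost each. IRF9, the DNA-binding partner of the STATs in ISGF3, averaged 7.96 in sh-PRLR and 7.77 in sh-Ctrl (difference 0.19, limma adjusted p = 0.599). It was named after its value was seen.

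**Figure D5:**
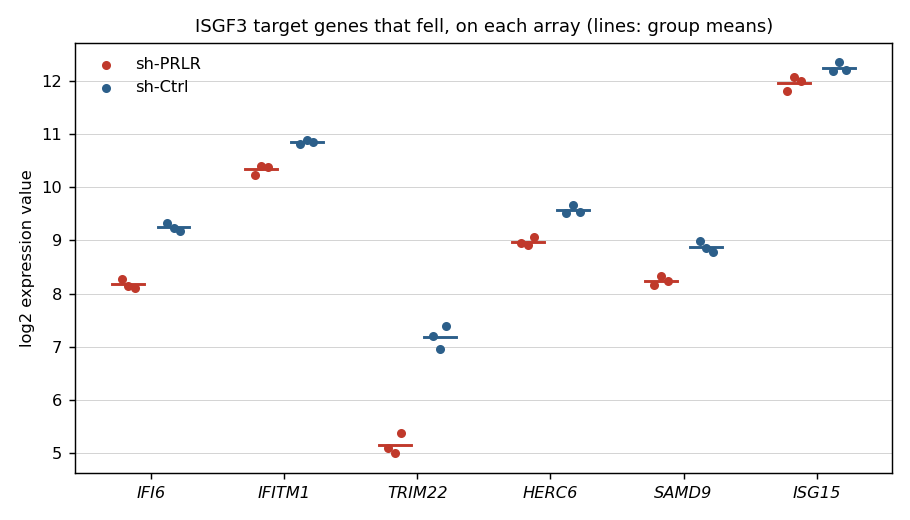
Log2 expression value (vertical axis) of the 6 ISGF3 target genes that fell, in sh-PRLR (red) and sh-Ctrl (blue), with 1 dot per array and a line at each group mean. All sh-PRLR dots of a gene lie below its sh-Ctrl dots, by the most for TRIM22, whose difference is -2.03.

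Across the 6 arrays the genes most like STAT5B, the member with the smallest p, were SEL1L (Pearson r = 0.996), which serves protein degradation at the endoplasmic reticulum, EMC2 (r = 0.993), part of a membrane protein insertion complex, and SLC16A5 (r = 0.992), a transporter. They were sought among 9886 genes above the median level, of which 328 had an r over 0.9 to STAT5B. The 6 points share the 2 groups, so genes with a group difference of the same sign are alike by that alone.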

How the data were processed

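Per the labels' protocols, total RNA came from a Trizol extraction and was biotin-labelled, and more than 1 amplification kit is named without saying which was used. The values the authors deposited are log2 intensities summarised per probe set. Per the submitters' processing notes, the tools were MAS5, RMA and affy, whose roles and versions are not stated. The mean of the linear values with 2% trimmed at each end was 500 on all 6 arrays, as MAS5-type scaling gives, so no further normalisation was applied. Which genome build was used is not stated. No detection call was used.

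Symbols came from the platform annotation, looked up by Entrez ID in RefSeq (41043 found, 0 changed). The 62 control probe sets were left out. Each gene was read by its brightest probe set. The comparison used limma 3.58.1 in R 4.3.3, two-sided, with eBayes trend and robust and Benjamini-Hochberg adjustment over 19775 genes or 41091 probe sets, at 0.05. This setting, the members, the lists and the rule for named genes were chosen with earlier results of these data known. The rule names all members, PRLR, up to 5 called genes of each list in each direction, the 2 smallest p of a list with none, and the 3 genes most like the member with the smallest p. Single values were compared by exact permutation. The fits were also run on simulated independent normal values, which cannot tell which variance setting suits these arrays. The replicate numbers are shared by the groups, but same-numbered arrays deviated with correlations of -0.056, 0.059 and -0.1 over 9887 genes, so they were not taken as pairs. Nothing says that replicates came from separate infections, so p-values measure the spread between these samples. Figures were drawn with matplotlib 3.10.9.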

Additional observations from a re-analysis of the deposited data

How the results depend on the processing

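In all alternatives run, 0 of the 8 JAK and STAT genes passed, and the lowest adjusted p any of them reached was 0.0761, for STAT5B. The 1 probe set that passed, of JAK1, was lost (0 of 25 passing) with the default variance model, median centring, a floor of 4 on low values, the replicate block, the default model after the filter on dim features (added after seeing the data), and whenever 1 array was left out. The count over all genes was 4 with the default model, 506 after median centring and 609 with the mean of all probe sets, and 665 to 1322 with 1 array left out. The count over the pathway lists was 0 with the default model, 9 after median centring, 10 with the mean of all probe sets and 12 without _x_at and _s_at probe sets, and ran from 11 (without sh-Ctrl replicate 2) to 23 with 1 array left out. The replicate block left 1090 genes over all and 20 in the lists. HERC6, IFI6, IFITM1, IFITM2, SAMD9, SHC1, STAM, TNFAIP8, TRIM22 and VEGFA kept their calls whichever array was left out. ID1 and PIM3 lost theirs without sh-Ctrl replicate 2, IFNLR1 without sh-Ctrl replicate 1 or 2, CCND2 without sh-PRLR replicate 2 or 3 or sh-Ctrl replicate 2, PIM1 without sh-PRLR replicate 3 or sh-Ctrl replicate 1 or 3, and CCND1, CCND3, IRS1, ISG15, PDLIM2 and SOCS7 without most single arrays. Read as a gene, PRLR did not pass under any setting that kept it, and the filter on dim genes left it out. Among the alternatives its single probe sets were read only with the default model, where none passed. They were not followed through the other settings. Signs turned, without passing, as follows. JAK2 gave 0.27 with the mean of all probe sets. JAK3, gene and 207187_at, gave 0.051 without sh-PRLR replicate 1, in a range of -0.277 to 0.051. STAT6 gave 0.017 under quantile normalisation, 0.12 with the mean of all probe sets, and -0.08 to 0.051 with 1 array left out. Quantile normalisation gave -0.038 for JAK3 211108_s_at, and the floor gave -0.29 for it, 0.045 for JAK3 211109_at and 0.12 for JAK1 239695_at. With 1 array left out the ranges were -0.14 to 0.50 for JAK1 240613_at, -0.82 to 0.59 for 239695_at, -0.35 to 0.85 for JAK3 211108_s_at, -0.089 to 0.005 for STAT3 225289_at, -0.18 to 0.09 for 208992_s_at, -0.093 to 0.221 for STAT5B 205026_at and -0.38 to 0.51 for 1555086_at. With the mean of all probe sets CCND3 gave 0.16, HERC6 0.66 and SOCS7 -0.005. The cause was not tested. Low signal limits the dim probe sets.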
